A study of Mus musculus with 12 samples.

Results

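Pde4d, the gene of phosphodiesterase 4D, was examined here with 9 other genes that degrade or receive the cyclic AMP (cAMP) signal: the cAMP phosphodiesterase genes Pde4a, Pde4b, Pde3b, Pde7a and Pde8a, the protein kinase A (PKA) catalytic subunit genes Prkaca and Prkacb, and the PKA regulatory subunit genes Prkar1a and Prkar2a. The members were taken by gene symbol from the table of the series, which held all 10 of them among 15855 genes, and all 10 passed the filter on low counts that left 14462 genes for testing. Pde4d was selected on its measured difference between the groups, so member differences between pMCAO and sham are given as a description without a test. The RNA came from epithelial cells of the whole small intestine of wild-type C57BL/6J mice aged 8 to 12 weeks, male unless the methods state otherwise, collected 24 h after surgery. In the pMCAO group (n = 5) the middle cerebral artery was permanently occluded to model ischaemic stroke, and the sham group (n = 7) had the surgery without the occlusion. Cells were sorted as live EpCAM+7AAD- after the muscle layers had been removed, EpCAM being an adhesion molecule found on the surface of epithelium and 7AAD a dye that enters dead cells.

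Cyclic AMP is made from ATP by adenylyl cyclases when receptors coupled to stimulatory G proteins are activated, among them beta-adrenergic receptors and receptors for prostaglandin E2. It binds the regulatory subunits of PKA and frees the catalytic subunits, which phosphorylate ion channels, metabolic enzymes and transcription factors of the CREB family. Phosphodiesterases end the signal by hydrolysing the cyclic nucleotide, and the PDE4, PDE7 and PDE8 families act on cAMP, whereas PDE3 enzymes act on cAMP and are inhibited by cyclic GMP (cGMP). In intestinal epithelium, cAMP is best known for driving chloride and fluid secretion through the channel Cftr.

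The libraries fell into 4 runs of consecutive library numbers (58 to 61, 62 to 65, 66 to 68, and 72 alone), each of the first 3 holding both groups. Total counts ranged from 7418730 to 31925579 per library, and 3 counts corresponded to between 0.0692 and 0.724 TMM-scaled CPM (counts relative to library size, with the size corrected by the trimmed mean of M-values). Libraries 58 to 61 stood apart. They had 13386 to 14712 genes detected against 15343 to 15766 in the other libraries, and mitochondrial ribosomal RNA made up 34.8% to 54.5% of their counts against 14.6% to 35.2%. The summed CPM of 4 goblet cell markers was 2911 to 5141 in libraries 58 to 61 and 14346 to 35481 in the others, and 4 enteroendocrine markers likewise did not overlap. The summed CPM of tuft cell markers was 8.09 to 34.3 in libraries 58 to 61 and 124 to 597 in the others, that of stem cell markers 0.207 to 3.25 and 8.15 to 49.8, and that of leukocyte markers 27.3 to 38.6 and 40.9 to 218. Among sham samples, the only leukocyte marker apart was Ptprc, at 15.2 to 20.7 CPM in those libraries and 48.6 to 121 CPM in the others. The other leukocyte markers overlapped, and the mean of Csf1r was higher in those libraries, at 1.90 against 1.31 CPM. The tuft marker Il25 and the stem marker Smoc2 overlapped as well. The epithelial marker sum was higher in libraries 58 to 61, at 9207 to 11431 against 4772 to 7734, but its markers did not all rise. Among sham samples, Epcam, Krt8, Krt20 and Vil1 were each higher in those libraries. Krt18 was lower there, at 117 to 169 CPM against 236 to 579 CPM. The enterocyte marker sum overlapped, at 11203 to 32128 in libraries 58 to 61 and 8708 to 16480 in the others. The Paneth cell marker sum also overlapped, at 10.6 to 17.2 and 16.3 to 70.5. The epithelial markers Epcam, Krt8, Krt18, Krt20 and Vil1 were present in every library, with a summed CPM of 4772 to 10227 in sham and 4921 to 11431 in pMCAO samples. All 8 leukocyte markers were in the table, with a summed CPM of 27.3 to 218 in sham and 38.5 to 146 in pMCAO samples. Of these, Ptprc was detected in every library, and Cd3e, Cd3g and Cd79a were at 0 in 1 or 2 libraries each. Of 8 stromal, muscle and endothelial markers, only Pecam1 was in the table.

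Pde4d lies on chromosome 13 (GRCm38, chr13:108449948-109953461, plus strand), where GENCODE M21 gives it 20 transcripts from 20 start sites. Gene counts do not separate these forms. RefSeq promoters, 300 bases each from 250 before to 50 after a start site on GRCm38.p6, were found for 8 of the 10 members. The cAMP response element, the site bound by CREB family factors, was searched as TGACGTCA, which reads the same on both strands, and its core as TGACG on either strand. Among 32851 promoters of all genes, 588 (1.79%) held the full element and 20.8% the core, which every full element also contains. Of 21 member promoters, 9 (42.9%) held the core and 2 the full element, the latter both of Prkar1a and overlapping each other. The Pde4d promoter is shown as that of the gene with the lower level in pMCAO samples, and one Prkar1a promoter as the member sequence with a full element, at position -49 from the start site. Both run 5′ to 3′, with full elements and cores in capitals.
Pde4d promoter (chr13:108653927-108654226, plus strand): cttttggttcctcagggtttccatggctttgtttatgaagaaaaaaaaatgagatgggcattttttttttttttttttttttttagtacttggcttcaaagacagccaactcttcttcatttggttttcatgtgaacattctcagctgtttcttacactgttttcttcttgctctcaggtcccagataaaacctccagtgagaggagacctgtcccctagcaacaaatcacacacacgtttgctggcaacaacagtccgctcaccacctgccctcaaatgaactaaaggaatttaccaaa
Prkar1a promoter (chr11:109650699-109650998, plus strand): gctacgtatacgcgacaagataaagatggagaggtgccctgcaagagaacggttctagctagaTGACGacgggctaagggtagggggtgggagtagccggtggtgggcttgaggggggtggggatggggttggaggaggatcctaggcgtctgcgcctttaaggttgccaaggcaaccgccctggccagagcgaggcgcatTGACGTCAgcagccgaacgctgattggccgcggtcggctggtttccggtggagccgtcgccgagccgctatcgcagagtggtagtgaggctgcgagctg
The Pde4d window held neither motif, which says only that these letters are not in this window at 1 of its start sites. The Prkar1a window also held a core apart from the full element, farther from the start site.

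Pde4d was lower in pMCAO than in sham samples. Its level in the 5 pMCAO samples, in CPM after TMM scaling, was 56.7, 44.3, 59.96, 31.1 and 32.9. In the 7 sham samples the lowest level was 71.3 CPM, the median 101 CPM and the highest 194 CPM. Every pMCAO sample was below every sham sample. Pde4d was the only member whose groups did not overlap, and 0.505% of all genes tested had groups that did not overlap. The pMCAO mean was 45.0 ± 13.2 CPM (SD, n = 5), against a sham mean of 120 ± 49.96 CPM (SD, n = 7). With the library run as a covariate the log2 fold change was -1.15 (SE 0.17), which is 0.45 of the sham level. Within the runs, the difference of mean log2 CPM was -1.58 in libraries 58 to 61, -0.80 in libraries 62 to 65 and -1.24 in libraries 66 to 68. The value of -1.58 rests on pMCAO replicate 1 and that of -1.24 on sham replicate 6, each the only sample of its group in that run. The selection used this contrast, in which 47 genes (0.325% of those tested) were called (Benjamini-Hochberg adjusted p up to 0.05, with log2 fold changes of 1 or more in size), and Pde4d was the 1 member among them. Without the run term, 0 genes (0%) were called by limma-voom, with 1219 genes at an unadjusted p under 0.05, and the log2 fold change of Pde4d was -1.35 (SE 0.28). As bulk RNA was measured, fewer cells of a type that carries Pde4d RNA and less Pde4d RNA per cell cannot be told apart.

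**Figure D1:**
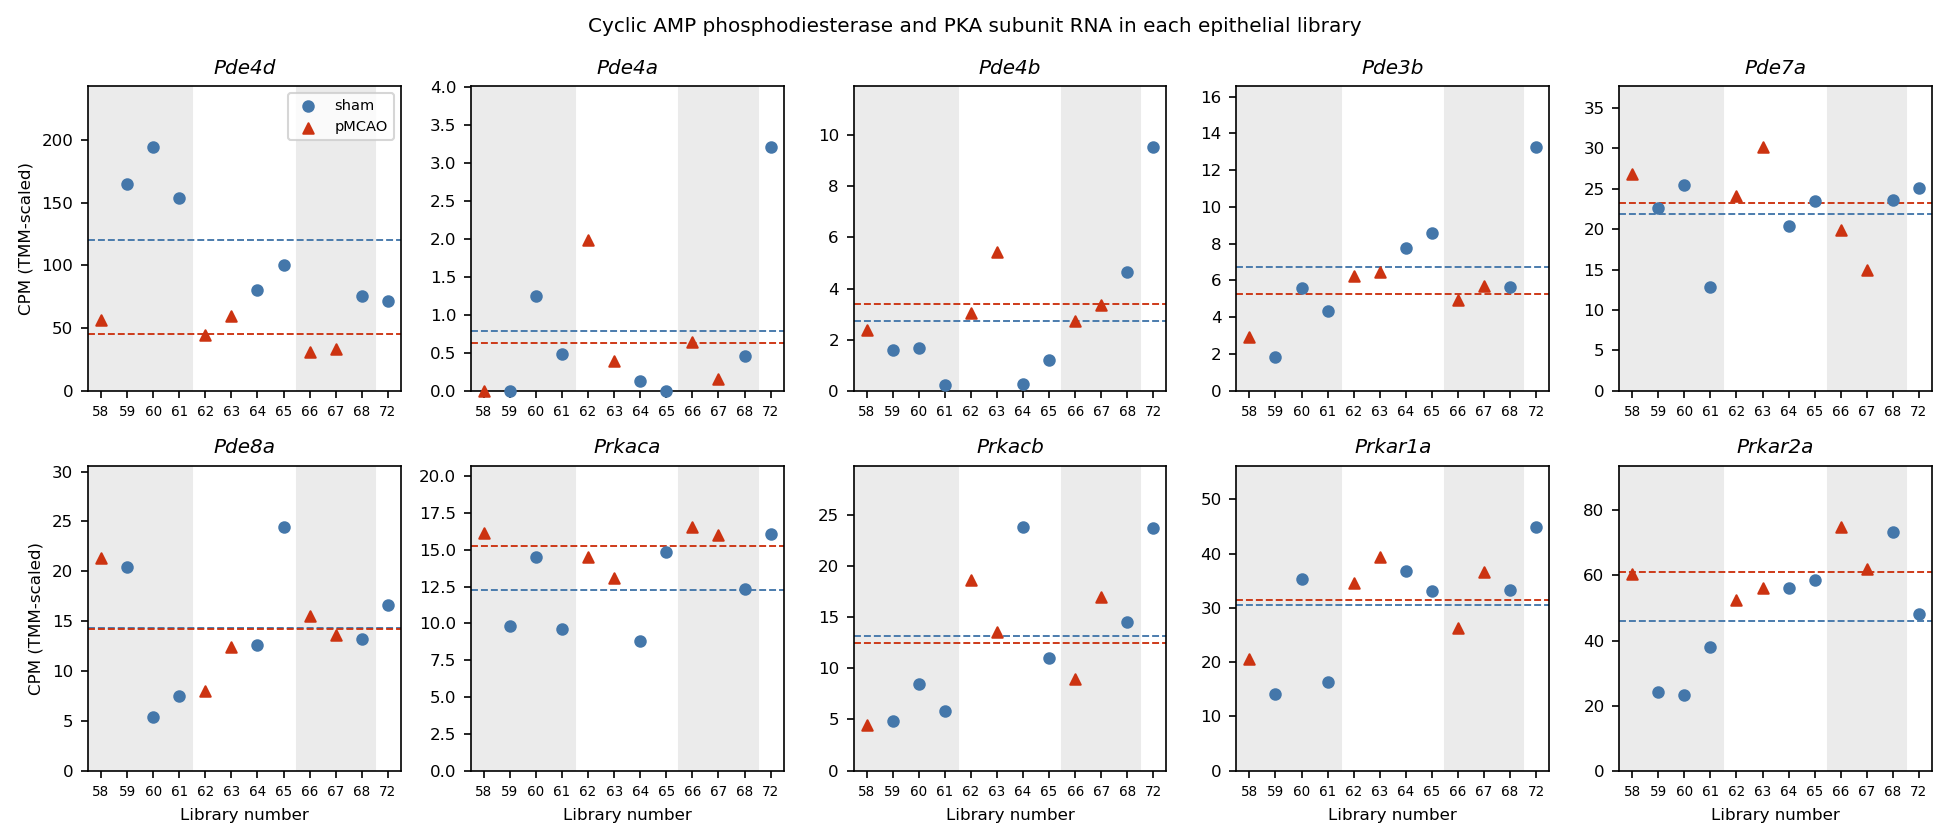
Level of each of the 10 genes in each library (y axis, TMM-scaled CPM, starting at 0) against library number (x axis), with sham samples as circles, pMCAO samples as triangles, dashed lines at the group means and shading that alternates between library runs. In the Pde4d panel the 5 pMCAO samples sit between 31.1 and 59.96 CPM, all below the sham samples, and sham libraries 59 to 61 are the highest; in the other 9 panels the groups overlap.

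The distance between the groups depended on the scaling. In the deposited CPM values, which are counts over the total with no TMM factor, Pde4d spanned 35.3 to 81.4 CPM over pMCAO samples and 82.8 to 131 CPM over sham samples, so the groups were still apart, by a narrow margin. Scaled in this way, an alternative chosen after seeing the data, the log2 fold change was -0.99, while the median of all genes moved from 0.01 to 0.15, so that relative to this median Pde4d was at -1.14 with total counts and -1.16 with TMM. Of the genes called, 21 of 32 were higher in pMCAO with total counts and 20 of 47 with TMM. Leaving out libraries 58 to 61 gave -0.97, and leaving out each sample in turn gave values from -1.28 to -0.99. Each of these is a decrease, and those of -0.99 and -0.97 met neither the fold change nor the adjusted p set for a call. Without sham replicate 6 the value was -1.14, which met the fold change but not the adjusted p.

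Pde4d also varied among the sham samples themselves. The 3 sham samples of libraries 59 to 61 had 165, 194 and 154 CPM after TMM scaling, and the 4 later sham samples had 80.3, 101, 75.8 and 71.3 CPM. The 3 samples earlier in library number were all above the 4 later ones, with means of 171 ± 20.8 CPM (SD, n = 3) and of 82.0 ± 12.9 CPM (SD, n = 4), giving a log2 difference of 1.06 (SE 0.21). The sham samples also entered the contrast that chose Pde4d, so no test of its own difference among them is given. On the total-count scale the difference was 0.24, and the ranges overlapped (86.0 to 131 CPM earlier, 82.8 to 111 CPM later). That scale moved the median log2 difference of all genes from -0.16 to -0.97, and relative to this median Pde4d was 1.22 higher in the earlier samples with TMM and 1.21 higher with total counts. The part of the genes detected, the mitochondrial ribosomal RNA and the cell type markers in this difference was not tested.

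The other PDE4 genes carried few reads. Pde4a (chr9:21165714-21213248, plus strand), which encodes phosphodiesterase 4A, had 0 to 85 counts per library and was at 0 in 3 of the 12 libraries. Its levels spanned 0 to 3.21 CPM over sham samples and 0 to 1.99 CPM over pMCAO samples, near the floor of the shallower libraries. Pde4b (chr4:102087543-102607259, plus strand), which encodes phosphodiesterase 4B, spanned 0.241 to 9.54 CPM over sham samples and 2.39 to 5.42 CPM over pMCAO samples. The log2 fold changes were 0.66 (SE 1.21; 95% interval -1.90 to 3.22) for Pde4a and 0.68 (SE 0.58; -0.56 to 1.92) for Pde4b, so the interval of Pde4a spans the value of Pde4d and a rise of more than that size, and the interval of Pde4b leaves out the value of Pde4d but not a rise of 2-fold. Of the reads of Pde4a, Pde4b and Pde4d together, Pde4d held 84.8% to 99.5% in sham and 89.8% to 96.0% in pMCAO samples. The lowest share, in sham replicate 7, had a 95% Wilson interval of 82.7% to 86.8%, which covers counting error only.

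Pde3b, Pde7a and Pde8a overlapped between the groups. Pde3b (chr7:114415281-114539251, plus strand) encodes the PDE3 enzyme known from insulin action in fat and liver cells. Sham samples held 6.72 ± 3.63 CPM of it (SD, n = 7) and pMCAO samples 5.24 ± 1.42 CPM (SD, n = 5). Pde7a (chr3:19223108-19311322, minus strand), a cAMP-specific enzyme, was at 21.9 ± 4.37 CPM and 23.2 ± 5.94 CPM, and Pde8a (chr7:81213596-81334533, plus strand), another cAMP-specific enzyme, at 14.3 ± 6.79 CPM and 14.2 ± 4.87 CPM. The log2 fold changes were -0.23 (SE 0.28; 95% interval -0.82 to 0.37) for Pde3b, 0.04 (SE 0.21; -0.41 to 0.49) for Pde7a and -0.22 (SE 0.32; -0.91 to 0.46) for Pde8a. All 3 intervals lie inside a 2-fold change either way and none reaches the value of Pde4d. Sham replicate 7 had the highest Pde4a, Pde4b and Pde3b of all 12 samples, and it was the only library of its run. Exons of Pde7a overlap the antisense gene Gm16093 over 48 bases, and whether the counting used strand was not given in the sources used here.

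With their exon lengths taken into account, Pde4d made up a smaller part of the RNA of the member phosphodiesterase genes in pMCAO than in sham samples of the same run. Its share of the summed CPM per kilobase of exon of Pde4d, Pde4a, Pde4b, Pde3b, Pde7a and Pde8a was 33.7%, 36.9%, 37.8%, 26.2% and 30.5% in the 5 pMCAO samples. In sham samples the lowest share was 37.0%, the median 50.2% and the highest 75.9%. The groups overlapped at a single point, where sham replicate 7 was below pMCAO replicate 3. The other 5 genes summed to 7.47 ± 2.27 CPM per kilobase over sham samples (SD, n = 7) and to 7.47 ± 1.30 over pMCAO samples (SD, n = 5). These equal means pool opposite differences. In libraries 58 to 61 the sum was 5.98 in sham (n = 3) and 9.29 in pMCAO (n = 1). In libraries 62 to 72 it was 8.58 in sham (n = 4) and 7.02 in pMCAO (n = 4). The share contains the selected gene, its size depends on the exon lengths used, and it is a description. It also leaves out the cAMP phosphodiesterases that are not members, of which 0 of 6 tested were called. The most abundant of these was Pde3a, with means of 20.8 CPM in sham and 44.0 CPM in pMCAO samples.

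**Figure D2:**
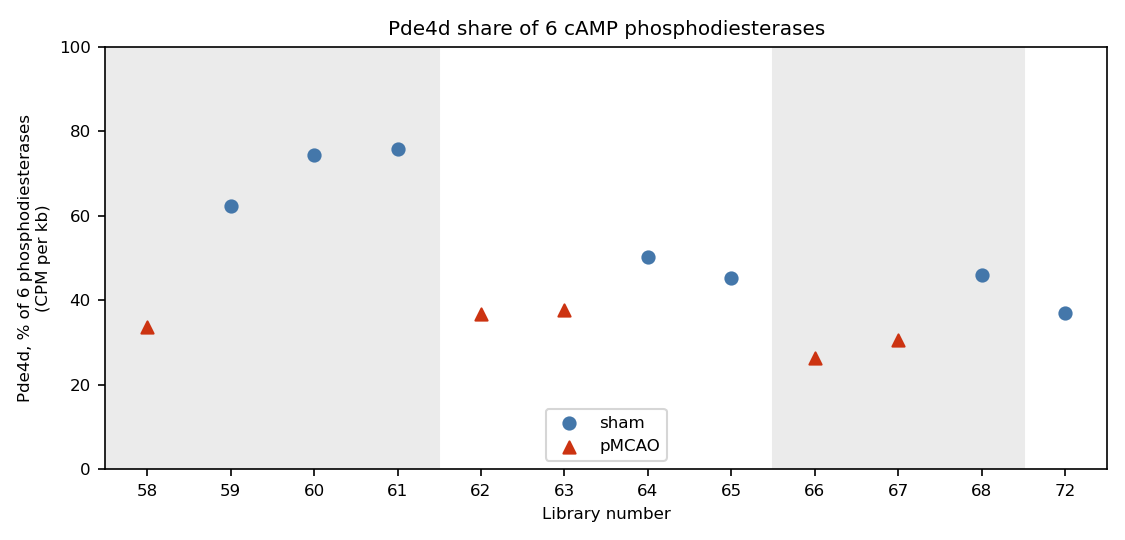
Share of Pde4d (y axis, percent of the summed CPM per kilobase of exon of the 6 cAMP phosphodiesterase genes) against library number (x axis), with sham samples as circles, pMCAO samples as triangles and shading that alternates between library runs. Shares spanned 37.0% to 75.9% over sham samples and 26.2% to 37.8% over pMCAO samples, and within each run every pMCAO sample was below every sham sample.

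The PKA catalytic subunits overlapped between the groups. Prkaca (chr8:83972993-83996443, plus strand) encodes the alpha catalytic subunit and averaged 12.3 ± 2.93 CPM over sham samples (SD, n = 7) and 15.3 ± 1.44 CPM over pMCAO samples (SD, n = 5), and Prkacb (chr3:146729574-146812990, minus strand), the beta catalytic subunit, at 13.2 ± 7.93 CPM and 12.5 ± 5.82 CPM. The log2 fold changes were 0.34 (SE 0.21; 95% interval -0.11 to 0.78) for Prkaca and -0.02 (SE 0.26; -0.57 to 0.54) for Prkacb. Prkaca shares stretches of 50 identical bases with the annotated pseudogene Prkaca-ps1 over 2.5% of its longest transcript. Of the regulatory subunits, Prkar1a (chr11:109649405-109669656, plus strand), type I alpha, was at 30.6 ± 11.2 CPM in sham and 31.5 ± 7.84 CPM in pMCAO samples, with a log2 fold change of 0.05 (SE 0.19; -0.35 to 0.46).

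Prkar2a (chr9:108689314-108750436, plus strand), the type II alpha subunit that binds anchoring proteins, varied with the library run. The pMCAO samples had 60.6, 52.3, 56.1, 74.97 and 62.1 CPM, and the sham samples a lowest level of 23.2 CPM, a median of 48.3 CPM and a highest of 73.4 CPM. The groups overlapped, and the low sham samples were those of libraries 59 to 61. The log2 fold change was 0.16 (SE 0.20; 95% interval -0.25 to 0.58) with the run as a covariate and 0.45 (SE 0.26) without it. Within libraries 58 to 61, where pMCAO replicate 1 was the only pMCAO sample, the log2 difference was 1.13, against -0.08 and -0.11 in the next runs. Over the 10 members, the median log2 fold change was 0.05 with 6 higher and 4 lower, beside a median of 0.01 over all 14462 genes.

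Compared per kilobase of exon, Pde4d had the highest mean level of the 10 genes in sham samples, at 10.01 ± 4.16 CPM per kilobase (SD, n = 7). Prkar2a followed at 7.20 ± 2.92, Prkar1a at 7.08 ± 2.59 and Prkaca at 4.94 ± 1.18 CPM per kilobase. These neighbours overlapped within their SDs. In pMCAO samples the order was Prkar2a at 9.60 ± 1.35, Prkar1a at 7.29 ± 1.82, Prkaca at 6.13 ± 0.579 and then Pde4d at 3.75 ± 1.10 CPM per kilobase (SD, n = 5), with Pde8a next at 3.50 ± 1.20. Pde4d and Prkaca did not overlap in pMCAO samples, where Pde4d reached at most 4.99 and Prkaca was at least 5.26 CPM per kilobase, and the other neighbours overlapped. The exon union used here is 12006 bases for Pde4d against a longest transcript of 4207, and 2488 against 2276 for Prkaca. The order of genes, and the gap between Pde4d and Prkaca, therefore hold for the exon union only. Another length was not tested. The order from the fifth to the tenth gene was the same in both groups: Pde8a, Pde7a, Prkacb, Pde3b, Pde4b and Pde4a. The ratio of catalytic to regulatory subunit RNA per kilobase averaged 0.475 ± 0.108 over sham samples (SD, n = 7) and 0.4502 ± 0.0465 over pMCAO samples (SD, n = 5).

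**Figure D3:**
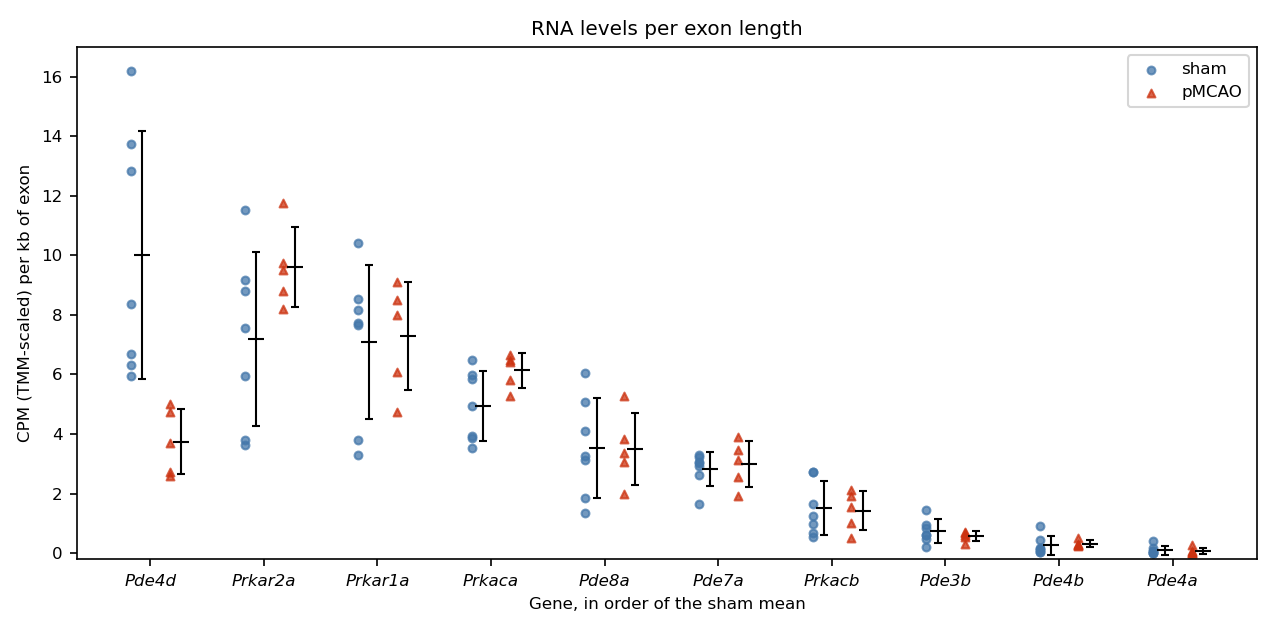
Level of each gene per exon length (y axis, TMM-scaled CPM per kilobase of exon) in order of the sham mean (x axis), with sham samples as circles, pMCAO samples as triangles, and the mean with its SD as a black bar (n = 7 and n = 5). Pde4d is first in sham, at a mean of 10.01, and ranks 4 in pMCAO samples, at 3.75 CPM per kilobase. The means pool the library runs, and Pde4d is not first in the later sham samples alone.

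A comparison of the 3 earlier with the 4 later sham samples does not involve the surgery contrast, and gives the spread of each gene between runs. Of the 10 members, 9 were at a lower fitted level in the earlier samples, with a median log2 difference of -0.74 beside -0.16 over all genes. Prkar2a was called lower, with levels of 23.2 to 37.9 CPM earlier against 48.3 to 73.4 CPM later and a log2 difference of -1.16 (SE 0.28, adjusted p = 0.0321, limma-voom), beside 3.34% of all genes tested that were called lower. Pde4d was the 1 member at a higher fitted level, which is given as a description only, and 1.7% of all genes were called higher. For the other subunits the log2 differences were -1.504 (SE 0.50, adjusted p = 0.0819) for Prkacb, -0.98 (SE 0.32, adjusted p = 0.0813) for Prkar1a and -0.28 (SE 0.36, adjusted p = 0.65) for Prkaca, none of which passed. Pde3b had a log2 difference of -1.41 (SE 0.61, adjusted p = 0.163) and did not pass either. The earlier and later samples did not overlap for Pde4d, Pde3b, Prkacb and Prkar2a, 4 of the 10, beside 27.4% of all genes. Leaving out any 1 of sham replicates 1 to 4 ended the call of Prkar2a, at log2 differences of -1.30 to -0.997. A fit of all 12 samples with the group as covariate also ended it, at -0.70 (adjusted p = 0.0515, limma-voom). With total counts, the split of all genes called turned almost wholly to lower, with 5 of 2365 called higher against 246 of 729 with TMM.

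**Figure D4:**
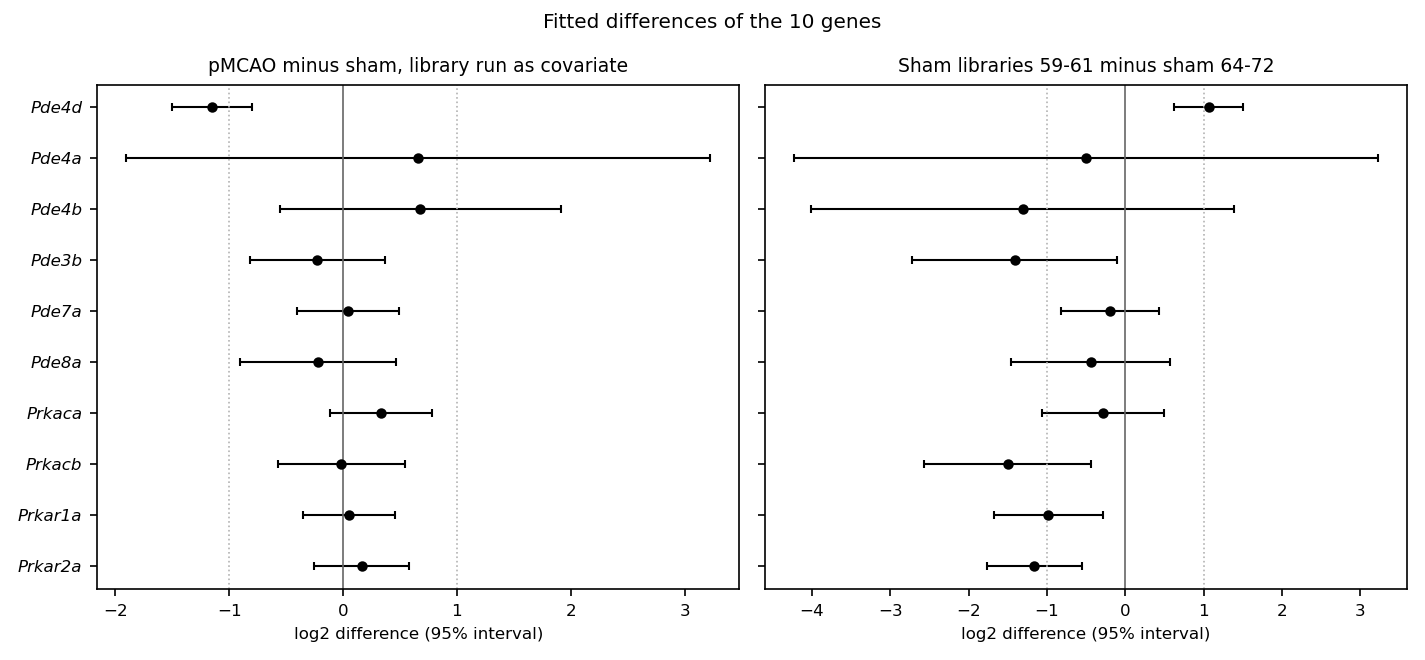
Fitted log2 difference of each gene (points) with its 95% interval (bars), for pMCAO minus sham with the library run as covariate (left) and for sham libraries 59 to 61 minus sham libraries 64 to 72 (right); solid lines mark no difference and dotted lines a log2 difference of 1 either way. On the left Pde4d is at -1.15 and the other members lie from -0.23 to 0.68; on the right Pde4d is at 1.06 and the others lie from -1.504 to -0.19.

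The other genes of the cyclic nucleotide pathway were taken from 10 lists of 117 genes, of which 88 were in the table and 81 were tested. With the run as a covariate, 1 of the 81 was called between pMCAO and sham, beside the 0.325% of all genes given above. An unadjusted p under 0.05 was found by limma-voom for 15 of the 81, beside 12.7% of all genes tested. The called gene was Pck1, a cAMP-induced gene that encodes the rate-limiting enzyme of gluconeogenesis. Pck1 rose from a sham mean of 166 ± 31.9 CPM (SD, n = 7) to a pMCAO mean of 421 ± 176 CPM (SD, n = 5), or by 1.28 on the log2 scale (SE 0.22, adjusted p = 0.0152, limma-voom). The groups overlapped, as the lowest pMCAO sample had 207 CPM and the highest sham sample 221 CPM. Pck1 is also among the genes the study itself listed on these samples, so its call is not independent evidence. Its call was lost without pMCAO replicate 1 (log2 fold change 1.08, adjusted p = 0.119), without sham replicate 6 (1.00, adjusted p = 0.168) and without libraries 58 to 61 (1.06, adjusted p = 0.339).

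None of the 11 other genes of the cAMP-response list was called, and the list had a median log2 fold change of 0.31 beside 0.01 over all genes. Areg, a growth factor of the EGF family, was at 0.86 on that scale (SE 0.28, adjusted p = 0.211), and Per1, a clock gene with cAMP response elements, 0.70 (SE 0.26, adjusted p = 0.267). Among the remaining phosphodiesterases 0 of 6 acting on cAMP and 0 of 3 on the cGMP and PDE6 list were called. Pde3a, which encodes the other PDE3 enzyme, came nearest, with means of 44.0 ± 17.9 CPM over pMCAO samples (SD, n = 5) and 20.8 ± 9.40 CPM over sham samples (SD, n = 7). The fitted value was 0.89 on the log2 scale (SE 0.21, adjusted p = 0.0717), with a positive difference in each of the 3 runs of 0.88, 0.54 and 1.12. The values of 0.88 and 1.12 rest on pMCAO replicate 1 and sham replicate 6, each alone in its group and run. Pde3a passed the test without sham replicate 4 (1.06, adjusted p = 0.0192) but not in the fit of all samples. The cGMP-specific enzymes Pde5a and Pde9a had log2 fold changes of 0.02 (SE 0.15; 95% interval -0.29 to 0.34) and -0.04 (SE 0.21; -0.48 to 0.40).

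Upstream of cAMP, 0 of 10 tested receptor genes, 0 of 7 G protein alpha subunit genes and 0 of 9 adenylyl cyclase genes were called. Ptger4, the EP4 receptor for prostaglandin E2 that raises cAMP, averaged 114 ± 45.5 CPM over sham samples (SD, n = 7) and 62.5 ± 26.04 CPM over pMCAO samples (SD, n = 5), a log2 value of -0.67 (SE 0.15, adjusted p = 0.0623). Among sham samples, Ptger4 was called higher in libraries 59 to 61, with a log2 difference of 1.02 (SE 0.23, adjusted p = 0.0272). The adrenergic receptor genes Adrb1 and Adrb3 were in the table but below the filter on low counts, with at most 49 and 41 counts in any library. Gnai3, an inhibitory G protein subunit, was at a log2 value of -0.37 (SE 0.14, adjusted p = 0.27), and Adcy6, an adenylyl cyclase, 0.44 (SE 0.16, adjusted p = 0.264).

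Downstream, 0 of 5 other PKA subunit and inhibitor genes, 0 of 15 anchoring and PDE4 partner genes and 0 of 9 effector and CREB family genes were called. Arrb1, the beta-arrestin that can bring PDE4 enzymes to activated receptors, was at a log2 value of -0.45 (SE 0.17, adjusted p = 0.272), and the anchoring protein gene Akap13 -0.36 (SE 0.14, adjusted p = 0.302). Creb1 and Atf1, transcription factors that bind the cAMP response element, had values of -0.38 (SE 0.16, adjusted p = 0.322) and 0.47 (SE 0.20, adjusted p = 0.343). On the cGMP side 0 of 5 genes were called. Guca2a and Guca2b, the genes of guanylin and uroguanylin, which activate the receptor guanylyl cyclase of enterocytes, had log2 fold changes of 0.66 (SE 0.20, adjusted p = 0.176) and 0.70 (SE 0.20, adjusted p = 0.145).

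**Figure D5:**
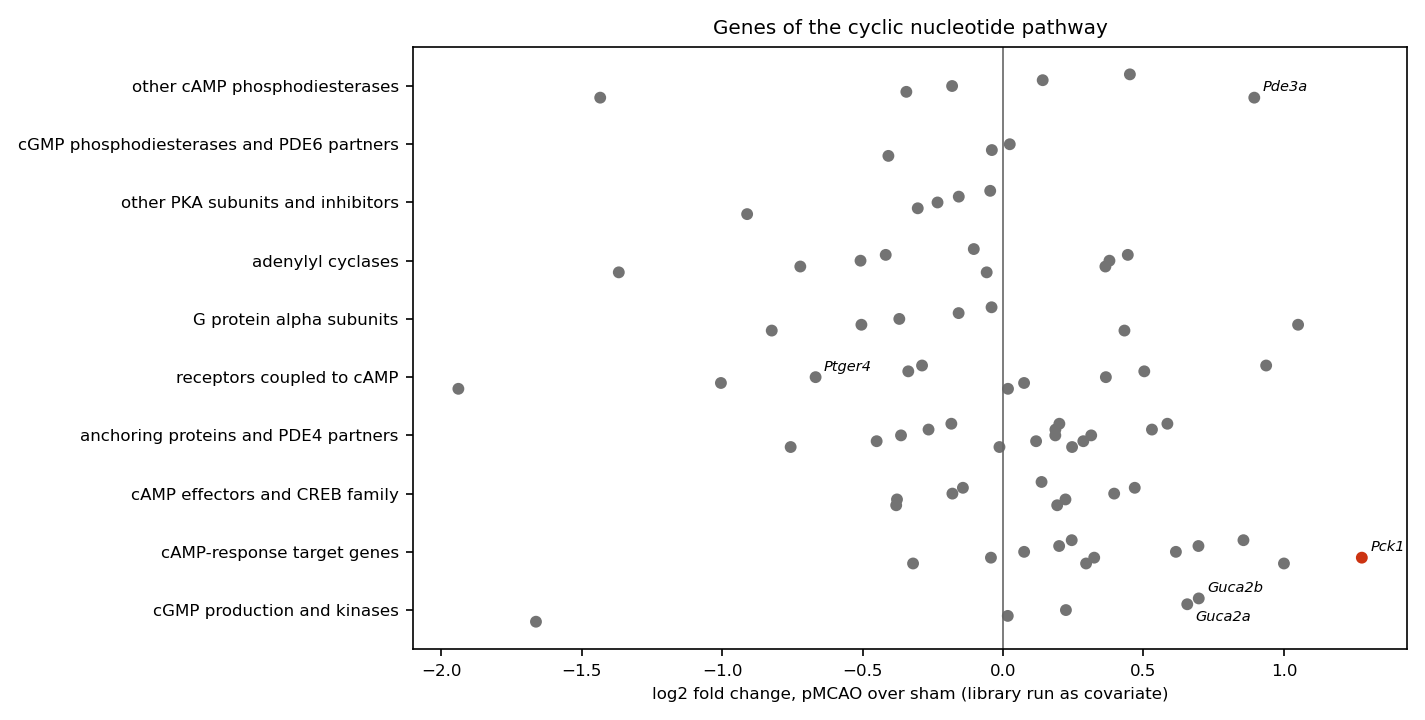
Log2 fold change of pMCAO over sham with the library run as covariate (x axis) for the 81 tested genes of 10 cyclic nucleotide pathway lists (y axis; points are spread vertically within a list for visibility), with the called gene Pck1 in red at 1.28 and all others in grey. Pde3a at 0.89, Ptger4 at -0.67, Guca2a at 0.66 and Guca2b at 0.70 are named and did not pass.

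In the early against later sham comparison, 6 of the 81 pathway genes were called, 5 lower and 1 higher in the earlier samples, beside 3.34% and 1.7% of all genes tested. The calls over all genes fell from 729 to 26, 56 and 60 when sham replicates 1, 2 and 3 were left out in turn. Those lower were Pde2a, a phosphodiesterase stimulated by cGMP, Adcy2, Gnao1, the chloride channel gene Cftr and Rgs2, with log2 differences of -4.91, -4.67, -2.01, -1.64 and -2.29. The gene called higher was Ptger4.

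The genes most like Pde4d were found by Pearson's r of log2 CPM over the 11 samples of the first 3 runs, each centred on its run. The 5 nearest were Fryl (r = 0.956, Spearman's rho 0.918), Slc17a5 (0.956, rho 0.964), 9130230L23Rik (0.955, rho 0.982), 2510039O18Rik (0.950, rho 0.945) and Mbnl2 (0.949, rho 0.964). Slc17a5 encodes a lysosomal sialic acid exporter and Mbnl2 a splicing regulator. They are the extreme of 14461 genes compared, and the samples share runs, depth and group. Of the other members, the nearest was Pde3b (0.354), and the 9 had a median r of -0.09 beside -0.04 over all genes. Ptger4 stood at rank 45, with r = 0.896.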

How the data were processed

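RNA of EpCAM+7AAD- small intestinal epithelial cells in the 7 sham and 5 pMCAO samples analysed here had been depleted of ribosomal RNA by cleavage and sequenced as paired-end libraries. The authors aligned reads to GRCm38 with STAR and assigned them to genes with featureCounts, tools that the submitters' processing notes also name, and tested groups with limma-voom after correcting for collection day. The deposited count columns hold whole-number counts per gene, not normalised. The deposited CPM columns are those counts over the column total, which held for all 190260 values within 0.001. Every gene in the table has at least 0.5 CPM in at least 4 samples. The deposited log2 fold change, average log2 expression, p-value and FDR columns hold the authors' own comparison and were not used.

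Counts were filtered with filterByExpr at its defaults (minimum count 10), which removed 1393 of 15855 genes, scaled with TMM factors and fitted by limma-voom under R 4.3.3 (packages limma 3.58.1 and edgeR 4.0.16) on group and library run. The labels give no collection day, so runs were read from the library numbers in the sample titles, a new run starting where a pMCAO library follows a sham library or the numbers jump. Adjusted p-values are Benjamini-Hochberg values over all 14462 genes. A call required an adjusted p up to 0.05 together with a log2 fold change of 1 or more in size. Sham libraries 59 to 61 were also fitted against the 4 later sham libraries. Levels per kilobase used the exon union of GENCODE M21, and log2 CPM a prior count of 2. Promoter sequences are RefSeq's (GRCm38.p6). Coordinates of genes are those of GENCODE M21 on GRCm38. The smallest chi-square per degree of freedom between replicates was 17.8, so no library was a repeat of another. The labels call each sample a biological replicate, and 1 further pMCAO sample that the paper counts was not analysed here. Scripts were tested on simulated data.

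The members, the pathway lists and the split of the sham libraries were chosen with earlier results of these data known. The naming rule took all members, the pathway genes called, up to 3 of smallest p in each list, Adrb1 and Adrb3, and the 5 genes most like Pde4d; not all of those it allows are printed. Alternatives were DESeq2 1.42.0, the quasi-likelihood test of edgeR, limma-trend, other scaling, no filter, no run term, a replicate block, and samples left out. Intervals of shares describe counting error alone, as no molecular identifiers separate PCR copies.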

Additional observations from a re-analysis of the deposited data

Results flagged for a closer look

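The highest or lowest sample stood apart from the rest of its group for 6 of 84 gene and group combinations examined, where chance gives about 1 in 20, or 4.2. Among the members this was Pde7a in sham replicate 3, at a log2 CPM of 3.69 from 53 counts against 4.55 ± 0.12 (SD, n = 6) in the rest of the group. In pMCAO replicate 1, the only pMCAO sample of libraries 58 to 61, Pde11a was at -1.88 against 2.98 ± 0.31 (SD, n = 4), from 2 counts. In the same sample Adcy2 was at -3.30 against 3.23 ± 0.10 and Adcy5 at -3.30 against 1.70 ± 0.60, both from 0 counts, and Prkx was higher, at 6.82 against 5.20 ± 0.21. The last was Atf1 in sham replicate 6, at 3.56 against 4.33 ± 0.16 (SD, n = 6).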

How the results depend on the processing

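Of 1020 values of single genes under alternative settings, 932 kept their sign and their side of the call thresholds, 56 turned sign, none of them called in the reported fit, and with the sign kept 21 lost and 11 gained a call. Pde4d was lower in pMCAO under every setting tried, at -1.61 to -0.97 on the log2 scale. Between pMCAO and sham, 47 genes were called, against 115 with DESeq2, 21 with edgeR, 26 with limma-trend, and 0 without the run term or without libraries 58 to 61. Pde4d and Pck1 were not called in those last fits (0 members and 0 pathway genes), and with total counts, chosen after seeing the data, 32 genes and 0 members were. Samples left out in turn gave 5 to 86 genes, 0 to 1 members, 0 to 2 pathway genes, and Pde4d at -1.28 to -0.99. The gene count moved by over 1.5 times without sham replicates 1 (30), 3 (28) and 6 (5) and without pMCAO replicates 1 (6), 3 (86), 4 (21) and 5 (20). No member and no pathway gene was called without sham replicate 6 or pMCAO replicate 1, and 2 pathway genes were without sham replicate 4. A replicate block in place of the run gave 243 genes and 4 pathway genes, adding Pde3a, Ptger4 and Guca2a. The numbers do not pair the samples (r of same-numbered deviations 0.40, -0.24, -0.16, 0.16 and 0.08), and only replicate 1 correlated best with its own number.

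Among sham libraries, 729 genes and 2 members were called (1 of them Pde4d, whose value is a description), against 1408 and 3 with edgeR, 2018 and 3 with DESeq2, 1687 and 1 with all 12 samples, 2365 and 4 with total counts, and 530 genes and 1 member with total counts less mitochondrial ribosomal RNA. The member called with all 12 samples was Prkacb, at a log2 difference of -1.55, and not Prkar2a. Leaving out samples gave 26 to 1637 genes and 0 to 3 members: 26, 56 and 60 genes and 0 members without sham replicates 1, 2 and 3, 326 genes and 1 member without replicate 4, 1637 and 3 without replicate 5, and 1 member without replicate 7.

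Between pMCAO and sham, signs that turned were Prkar1a with edgeR (-0.0140) and DESeq2 (-0.0263), Prkacb without the run term (0.0555), with the block (0.23), without libraries 58 to 61 (0.0334), with total counts (0.0891) and with total counts less mitochondrial ribosomal RNA (0.0589), Pde8a with limma-trend (0.0666), Pde7a (-0.0408) and Prkar2a (-0.0869) without libraries 58 to 61, Pde11a with edgeR (-0.26), DESeq2 (-0.30) and limma-trend (-0.48), Pde5a without the run term (-0.076), with the block (-0.19) and without libraries 58 to 61 (-0.0246), Gnai1 without the run term (0.56), with limma-trend (0.54) and with the block (1.42), Pkib (0.16), Adcy2 (0.49) and Adcy5 (0.36) with the block, Pde9a with total counts (0.13), and Pde8a among sham libraries with all 12 samples (0.0766). With samples left out, ranges that crossed 0 were Pde4a -0.30 to 1.73, Pde7a -0.0545 to 0.30, Pde8a -0.46 to 0.21, Prkacb -0.32 to 0.11, Prkar1a -0.0174 to 0.12, Prkar2a -0.10 to 0.32, Pde11a -0.10 to 0.60, Pde5a -0.0434 to 0.10, Pde6d -0.64 to 0.12, Pde9a -0.19 to 0.19, Prkx -0.54 to 0.0545, Pkib -0.94 to 0.22 and Gnai1 -1.07 to 0.85, and among sham libraries Pde4a -1.43 to 1.55 and Pde7a -0.32 to 0.0185. The cause was not tested. Depth limits Pde4a and Pde4b, and the 7 sham libraries limit the comparison among them.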
